A study of Mus musculus with 12 samples.

Results

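The 32 genes described here act in the cell's response to interferon and in the display of antigen on major histocompatibility complex (MHC) class I. They were taken by symbol from a count table of 53599 mouse genes, and all 32 were found in it. A filter on low counts kept 31 for testing and left out the antiviral gene Oas2, whose counts are given on their own. Bulk RNA-seq had been run on 12 cultures of mouse liver cells, in 4 groups of 3 libraries named by the sample titles. The cells called hepCLiP came from hepatocytes, those called bilCLiP from biliary epithelial cells (BEC), and both are named as cell lines. In 2D, either kind of cell grew on plates coated with collagen in small hepatocyte medium that held 10% FBS. In 3D, spheroids formed over 3 days in Aggrewell plates without FBS and a suspension culture of 6 to 8 days followed, in which oncostatin M was added at 10 ng/ml. This is a cytokine that signals through JAK kinases and STAT proteins. All 4 groups received Y-27632, a kinase inhibitor, A83-01, an inhibitor of TGF-beta receptors, and CHIR99021, an inhibitor of GSK3. Shape, serum, oncostatin M and time changed together between 2D and 3D, so their effects cannot be told apart. The genotype was RosaYFP in all 6 bilCLiP libraries and in replicate 2 of either hepCLiP culture, and RosaConfetti in hepCLiP replicates 1 and 3. These are fluorescent reporters at the Rosa26 locus. Since separate animals are not named for the replicates, a p-value here measures the spread between libraries alone. How far that spread is technical is not known, and in hepCLiP replicate 2 differs in genotype from replicates 1 and 3.

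Each library held 16142365 to 21253382 counts, of which the 32 genes took 0.134% to 0.270%. Levels are given as CPM, a gene's counts scaled to the library's total times its TMM factor, which was 1.16 to 1.26 in the 2D libraries and 0.764 to 0.941 in the 3D libraries. They are compared between libraries for a given gene, not between genes. A gene was called when its Benjamini-Hochberg adjusted p was under 0.05 in edgeR's quasi-likelihood test over 14798 genes, and every adjusted p below comes from that test unless another tool is named. Values written with ± beside a change are log2 fold changes of 3D over 2D, unless origins are compared, with their SE. The treatment tag of hepCLiP 2D replicate 3 reads 3D and the tags of the bilCLiP 3D libraries read 2D, against their titles. By log2 CPM across genes, hepCLiP 2D replicate 3 correlated at 0.953 and 0.944 with replicates 1 and 2 of its titled group and at no more than 0.852 with any hepCLiP 3D library. Calls that change without it are named beside the genes. The summed level of 10 hepatocyte markers ran from 196 to 2082 CPM over the 2D libraries and from 39087 to 84885 CPM over the 3D libraries. Of 8 biliary markers, 1 rose and 4 fell in hepCLiP 3D, and 1 rose and 2 fell in bilCLiP 3D. Spp1 alone ran from 1233 to 8447 CPM in 2D and from 11103 to 33046 CPM in 3D, while the sum of the other 7 ran from 1213 to 2544.5 CPM in 2D and from 169 to 430.1 CPM in 3D. Of 12 leukocyte and macrophage markers, Cd3e and Nkg7 had no count in any library and 9 stayed below 1 CPM in all 12. Ptprc, which marks leukocytes, had at most 4 counts in a library, and the list's summed level was 5.38 to 20.6 CPM. In bulk RNA, fewer cells of a type and less RNA per cell cannot be told apart.

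Interferons are secreted when sensors such as RIG-I and MDA5 detect viral RNA. Type I interferon binds the receptor chains Ifnar1 and Ifnar2, whose kinases activate STAT proteins. A complex that holds STAT2 and IRF9 binds the interferon-stimulated response element (ISRE), while interferon gamma acts through the gamma-activated site (GAS). The induced genes block viral replication, add immunoproteasome subunits, the TAP peptide transporter and class I heavy chains, and include inhibitors that end the signal. Hepatocytes are known to respond to type I interferon and to display little class I at rest.

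The sequence before the start of each of the 32 genes was searched for the core letters of these elements, where a window was found. The windows shown are the 250 bases before the annotated start, from RefSeq on GRCm38.p6, in the direction of the gene. They were searched on both strands for GAAANNGAAA, the ISRE core, which reads TTTCNNTTTC on the other strand, and for TTCNNNGAA, the GAS core. Windows were found for 25 of the 32 genes. The ISRE core was in 9 of the 25 (36.0%), against 3.46% of 27025 genes with a window, and the GAS core was in 5 (20.0%), against 8.13%. The genes with an ISRE core were B2m, Bst2, Cxcl10, Ifit1, Ifit3, Isg15, Oas1a, Rsad2 and Stat2, and those with a GAS core were Bst2, Ifit2, Irf1, Oas1a and Psmb8. A match describes these letters and is not evidence of binding. An element that departs from these letters is missed, so a gene without a match is not shown to lack one. The 6 windows below belong to 2 genes with ISRE cores near the start and to 4 genes called between cultures that hold a match. Capitals mark the matched letters. Ddx58 and Irf7 were also called between cultures, and their windows held neither core. For Mx2, called as well, no window was found.
Ifit1, chr19:34640639-34640888, plus strand: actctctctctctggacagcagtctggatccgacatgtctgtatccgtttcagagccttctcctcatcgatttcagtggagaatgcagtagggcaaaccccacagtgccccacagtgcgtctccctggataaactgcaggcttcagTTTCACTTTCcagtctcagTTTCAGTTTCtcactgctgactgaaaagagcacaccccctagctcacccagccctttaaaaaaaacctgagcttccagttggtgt
Isg15, chr4:156200819-156201068, minus strand: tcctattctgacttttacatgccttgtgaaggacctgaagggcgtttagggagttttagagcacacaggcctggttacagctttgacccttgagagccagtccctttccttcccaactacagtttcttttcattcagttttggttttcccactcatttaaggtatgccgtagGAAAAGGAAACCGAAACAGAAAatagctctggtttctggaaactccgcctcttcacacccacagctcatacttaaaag
Stat2, chr10:128270248-128270497, plus strand: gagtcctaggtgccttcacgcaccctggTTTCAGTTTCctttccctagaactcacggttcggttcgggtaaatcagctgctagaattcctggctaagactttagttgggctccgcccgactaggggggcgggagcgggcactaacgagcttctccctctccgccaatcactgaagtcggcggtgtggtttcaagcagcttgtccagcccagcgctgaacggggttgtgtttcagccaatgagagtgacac
B2m, chr2:122147437-122147686, plus strand: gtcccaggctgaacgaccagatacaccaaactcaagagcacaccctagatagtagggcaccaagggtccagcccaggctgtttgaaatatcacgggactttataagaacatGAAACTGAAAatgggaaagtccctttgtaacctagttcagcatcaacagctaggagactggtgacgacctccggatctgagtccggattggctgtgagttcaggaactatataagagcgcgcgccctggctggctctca
Bst2, chr8:71537473-71537722, minus strand: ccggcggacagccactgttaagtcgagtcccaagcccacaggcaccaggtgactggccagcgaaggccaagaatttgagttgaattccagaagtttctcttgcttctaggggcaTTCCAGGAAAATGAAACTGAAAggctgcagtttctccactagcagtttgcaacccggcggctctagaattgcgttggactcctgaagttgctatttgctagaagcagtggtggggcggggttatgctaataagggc
Irf1, chr11:53769764-53770013, plus strand: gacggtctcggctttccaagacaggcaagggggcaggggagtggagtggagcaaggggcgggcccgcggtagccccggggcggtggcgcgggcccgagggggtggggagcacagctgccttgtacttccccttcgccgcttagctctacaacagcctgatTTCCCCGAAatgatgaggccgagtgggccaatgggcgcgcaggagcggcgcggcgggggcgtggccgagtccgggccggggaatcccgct
Isg15 has 3 ISRE cores that overlap each other, and in Bst2 a GAS core overlaps the first of 2 ISRE cores. Irf1 has a GAS core and no ISRE core in this window, and a further RefSeq start of Irf1 has neither. For Stat2 and Bst2, the bases just after the RefSeq start were not found in GENCODE M21 transcripts, so the start is uncertain. Psmb9 and Tap1 are read in opposite directions from a shared stretch, shown whole because the counts of these genes can be set beside it. In its 225 bases neither core was found.
Psmb9 to Tap1, chr17:34187331-34187555, plus strand: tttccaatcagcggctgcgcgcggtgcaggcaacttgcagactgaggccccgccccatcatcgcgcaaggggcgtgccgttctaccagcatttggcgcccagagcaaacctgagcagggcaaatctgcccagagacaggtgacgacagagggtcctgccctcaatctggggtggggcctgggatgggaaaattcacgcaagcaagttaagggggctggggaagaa

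Few of the 31 tested genes were called between 2D and 3D, which does not show that the others stayed level. This main test, with its SEs and intervals, did not pair the cultures by replicate number. In hepCLiP, 3 of the 31 tested genes rose in 3D (Stat2, B2m and Bst2) and 2 fell (Irf1 and Ddx58), which is 16.1% called against 34.7% of all genes tested (16.9% higher and 17.9% lower). In bilCLiP, 3 rose (Mx2, Irf7 and B2m) and Irf1 fell, 12.9% against 30.3% of all genes (15.8% higher and 14.5% lower). The median log2 fold change over the 31 genes was 0.25 in hepCLiP and 0.36 in bilCLiP, against -0.0612 and -0.00243 over all genes tested. In hepCLiP 18 of the 31 had a log2 fold change above 0 and 13 below, and in bilCLiP 20 and 11. DESeq2 called 7 higher and 2 lower in hepCLiP, and 6 higher and 1 lower in bilCLiP, where it called 39.7% and 35.9% of all genes. With the replicate number as a block, which pairs the cultures of each origin, 6 rose and 2 fell in hepCLiP, and 6 rose and 1 fell in bilCLiP, against 47.1% and 43.1% of all genes called. The genes that the block added were H2-K1, Irf7 and Psmb9 in hepCLiP and H2-K1, Stat2 and Cxcl10 in bilCLiP. In the main test, B2m and Irf1 were the genes called in both origins, which share no library, and each kept its direction.

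These changes are relative to the TMM scaling. With library totals alone, an alternative added after the data were seen, the median log2 fold change of all genes was -0.63 in hepCLiP and -0.47 in bilCLiP, and 53.5% and 45.7% of all genes were called, most of them lower. On that scale 1 of the 31 genes rose and 4 fell in hepCLiP, and 1 rose and 3 fell in bilCLiP. B2m then lost its calls in both (log2 0.23 with adjusted p = 0.448, and 0.24 with 0.450), Bst2 that in hepCLiP (0.15, adjusted p = 0.611) and Irf7 that in bilCLiP (1.20, adjusted p = 0.0754). Ifih1 (-0.68) and Ifit2 (-0.69) fell in hepCLiP, and Ddx58 (-0.95) and Trim25 (-0.78) in bilCLiP. Stat2 (0.89) and Ddx58 (-1.21) in hepCLiP, Mx2 in bilCLiP (2.40) and Irf1 in both (-1.17 and -0.89) kept their calls and directions.

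**Figure D1:**
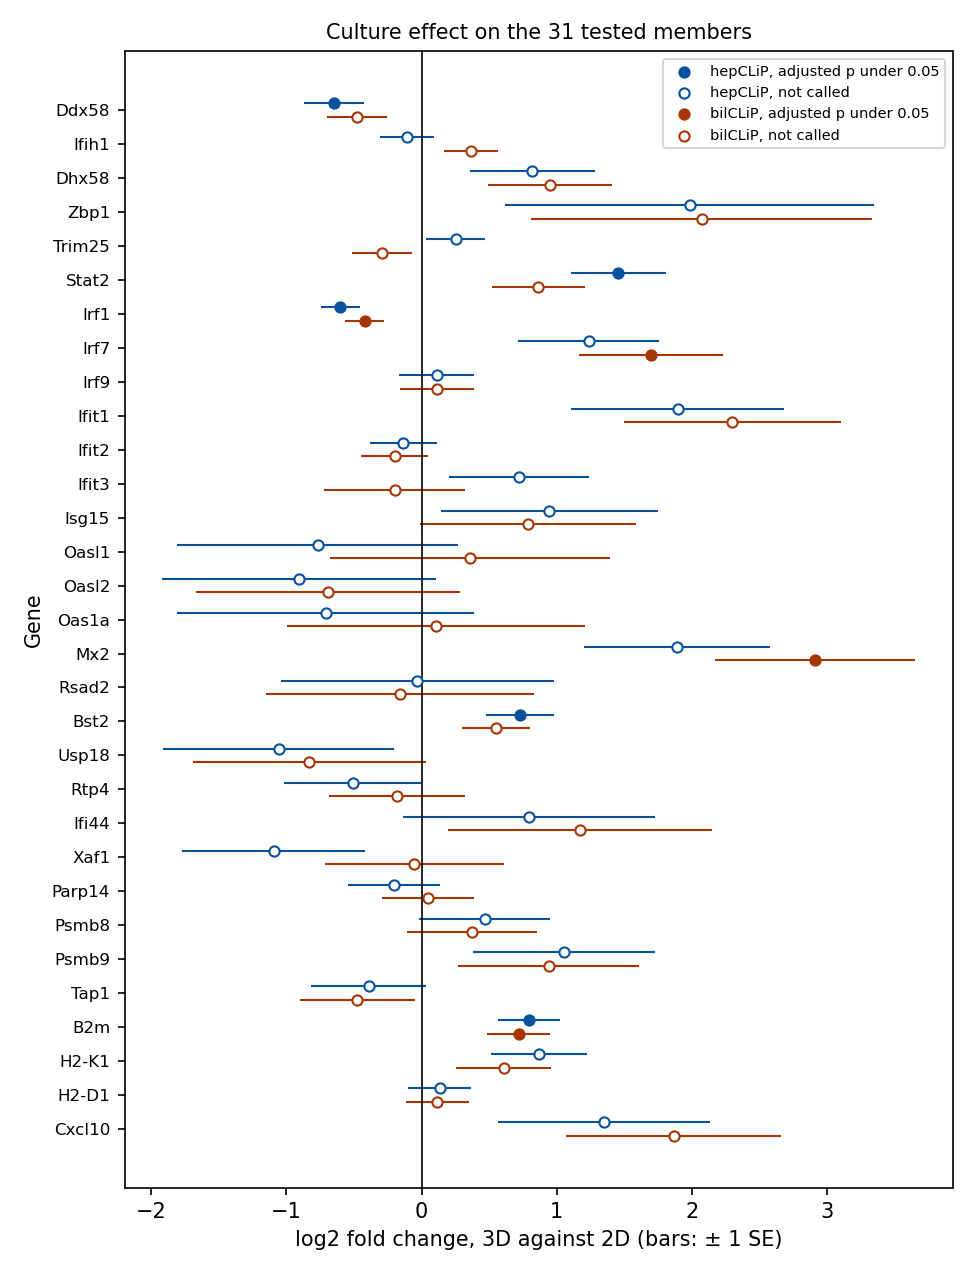
Log2 fold change of 3D against 2D for the 31 tested genes, by role, with bars of 1 SE on either side. Filled points have an adjusted p under 0.05, 5 in hepCLiP (blue) and 4 in bilCLiP (brown), and most open points lie within 2 SE of 0.

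**Figure D2:**
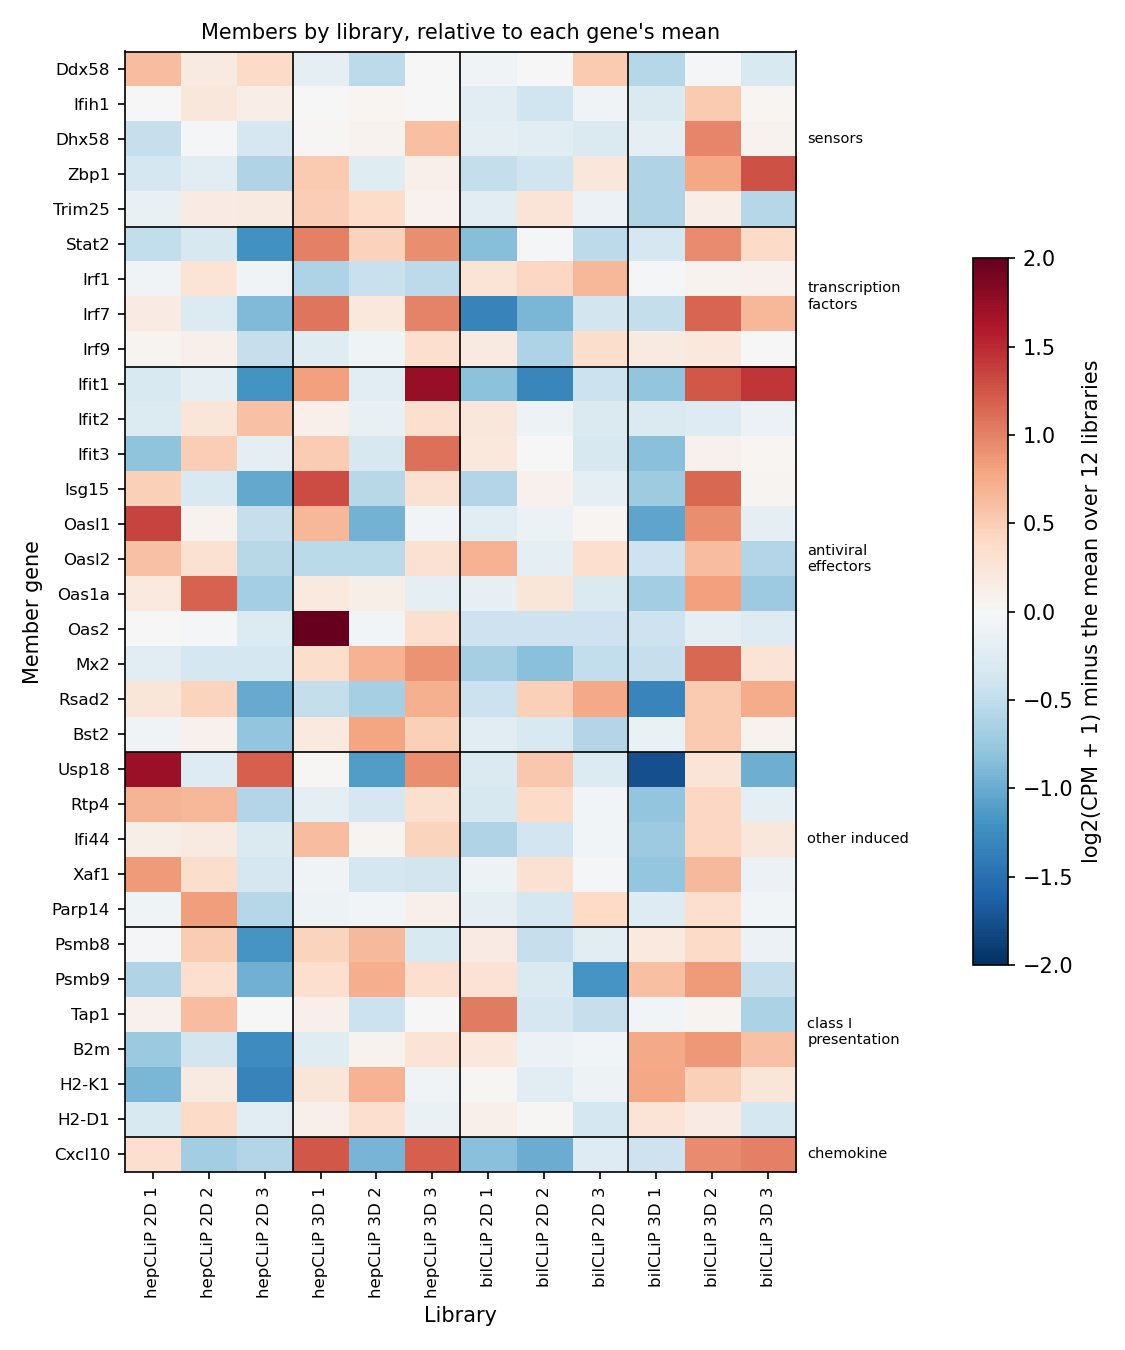
Level of each of the 32 genes in each of the 12 libraries, as log2(CPM + 1) minus the gene's mean over the libraries, with colours capped at 2 in either direction. Columns within a group differ visibly, with hepCLiP 2D replicate 3 and bilCLiP 3D replicate 1 mostly blue and bilCLiP 3D replicate 2 mostly red.

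Among the sensors, the RNA helicase genes Ddx58 (RIG-I), Ifih1 (MDA5) and Dhx58 (LGP2), the ubiquitin ligase Trim25 that activates RIG-I, and the Z-nucleic acid sensor Zbp1 were measured. Ddx58 fell in hepCLiP 3D. Its level was 39.8, 29.1 and 33.7 CPM in the hepCLiP 2D libraries and 22.3, 17.7 and 25.5 CPM in 3D, so each 3D library lay below each 2D library. The log2 fold change was -0.65 ± 0.223 (SE; adjusted p = 0.0433). The call was lost on leaving out hepCLiP 2D replicates 1 or 3, hepCLiP 3D replicates 1 or 2, bilCLiP 2D replicate 2, or bilCLiP 3D replicates 1 or 3 (adjusted p 0.0521 to 0.144). In bilCLiP the 2D libraries had 24.3, 25.8 and 37.3 CPM and the 3D libraries 17.0, 25.4 and 20.5 CPM, with overlap at replicate 2, and Ddx58 was not called (-0.47 ± 0.222, adjusted p = 0.132). The other sensors were not called in either origin. Ifih1 was close to level in hepCLiP (22.2 ± 1.74 CPM in 2D and 20.6 ± 0.203 in 3D, mean ± SD, n = 3). In bilCLiP it read 16.4, 29.7 and 20.9 CPM in 3D against 17.5, 15.2 and 19.4 in 2D, and without bilCLiP 3D replicate 1 it was called higher (log2 0.57, adjusted p = 0.0467). Dhx58, at 1.27 ± 0.370 and 1.31 ± 0.0747 CPM in 2D, had log2 fold changes of 0.82 ± 0.464 and 0.95 ± 0.461. Zbp1 stayed at or below 2.67 CPM in every library and had SEs over 1 on the log2 scale. In bilCLiP none of the 5 sensors was called, against 30.3% of all genes. None had an unadjusted p under 0.05, against 6133 of all 14798 genes tested, and DESeq2 called 0, against 35.9% of all genes.

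Of the transcription factors, Stat2, which binds the ISRE in a complex with IRF9, rose in hepCLiP 3D. It read 52.8, 59.3 and 31.7 CPM in 2D and 151, 102 and 142 CPM in 3D, and the lowest 3D library stood well above the highest 2D library. The rise was 2.75-fold (log2 1.46 ± 0.351, adjusted p = 0.00877), and it stayed called when any of the 12 libraries was left out. In bilCLiP the values were 40.8, 72.9 and 51.7 CPM in 2D and 58.8, 145 and 97.7 CPM in 3D. There bilCLiP 3D replicate 1 lay among the 2D libraries, and the log2 fold change of 0.86 ± 0.346 was not called (adjusted p = 0.0830). It was called with the replicate block (log2 0.81, adjusted p = 0.0302) and without bilCLiP 3D replicate 1 (1.16, 0.0249). The difference between the origins' culture effects on Stat2 was -0.59 ± 0.487, with a 95% interval of -1.67 to 0.48, and was not called.

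Irf7, the factor that amplifies type I interferon output, rose in bilCLiP. Its level was 1.64, 2.53 and 4.15 CPM in bilCLiP 2D and 3.75, 13.8 and 9.46 CPM in 3D. bilCLiP 3D replicate 1 overlapped the 2D range, while replicates 2 and 3 were above it. The log2 fold change was 1.70 ± 0.530 (adjusted p = 0.0329), and the call was lost on leaving out bilCLiP 2D replicates 1 or 2, or bilCLiP 3D replicates 2 or 3 (adjusted p 0.0752 to 0.136). In hepCLiP it went from 6.38, 4.46 and 2.60 CPM to 12.9, 6.67 and 12.2 CPM, without overlap but by a small gap. The hepCLiP change of 1.24 ± 0.522 was not called (adjusted p = 0.0893), and was with the replicate block (log2 1.26, adjusted p = 0.0283) and without bilCLiP 3D replicate 1 (adjusted p = 0.0454).

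Irf1, a factor induced mainly by interferon gamma that drives class I and immunoproteasome genes, fell in both origins. hepCLiP had 31.3, 40.1 and 31.2 CPM in 2D and 21.1, 23.8 and 22.7 CPM in 3D, a change of -0.60 ± 0.143 (adjusted p = 0.00806). bilCLiP had 40.1, 44.1 and 52.6 CPM in 2D and 32.5, 34.7 and 34.9 CPM in 3D, a change of -0.42 ± 0.142 (adjusted p = 0.0444). The groups did not overlap in either origin, and the 3D libraries lay close together. The hepCLiP call was lost on leaving out hepCLiP 3D replicate 1 (adjusted p = 0.0536). The bilCLiP call was lost on leaving out hepCLiP 2D replicate 1, hepCLiP 3D replicates 1, 2 or 3, bilCLiP 2D replicates 2 or 3, or bilCLiP 3D replicates 1, 2 or 3 (adjusted p 0.0560 to 0.171). Irf9, the DNA-binding partner of STAT2, was near 15 to 18 CPM in every group mean and was not called (0.11 ± 0.277 in hepCLiP and 0.11 ± 0.276 in bilCLiP).

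**Figure D3:**
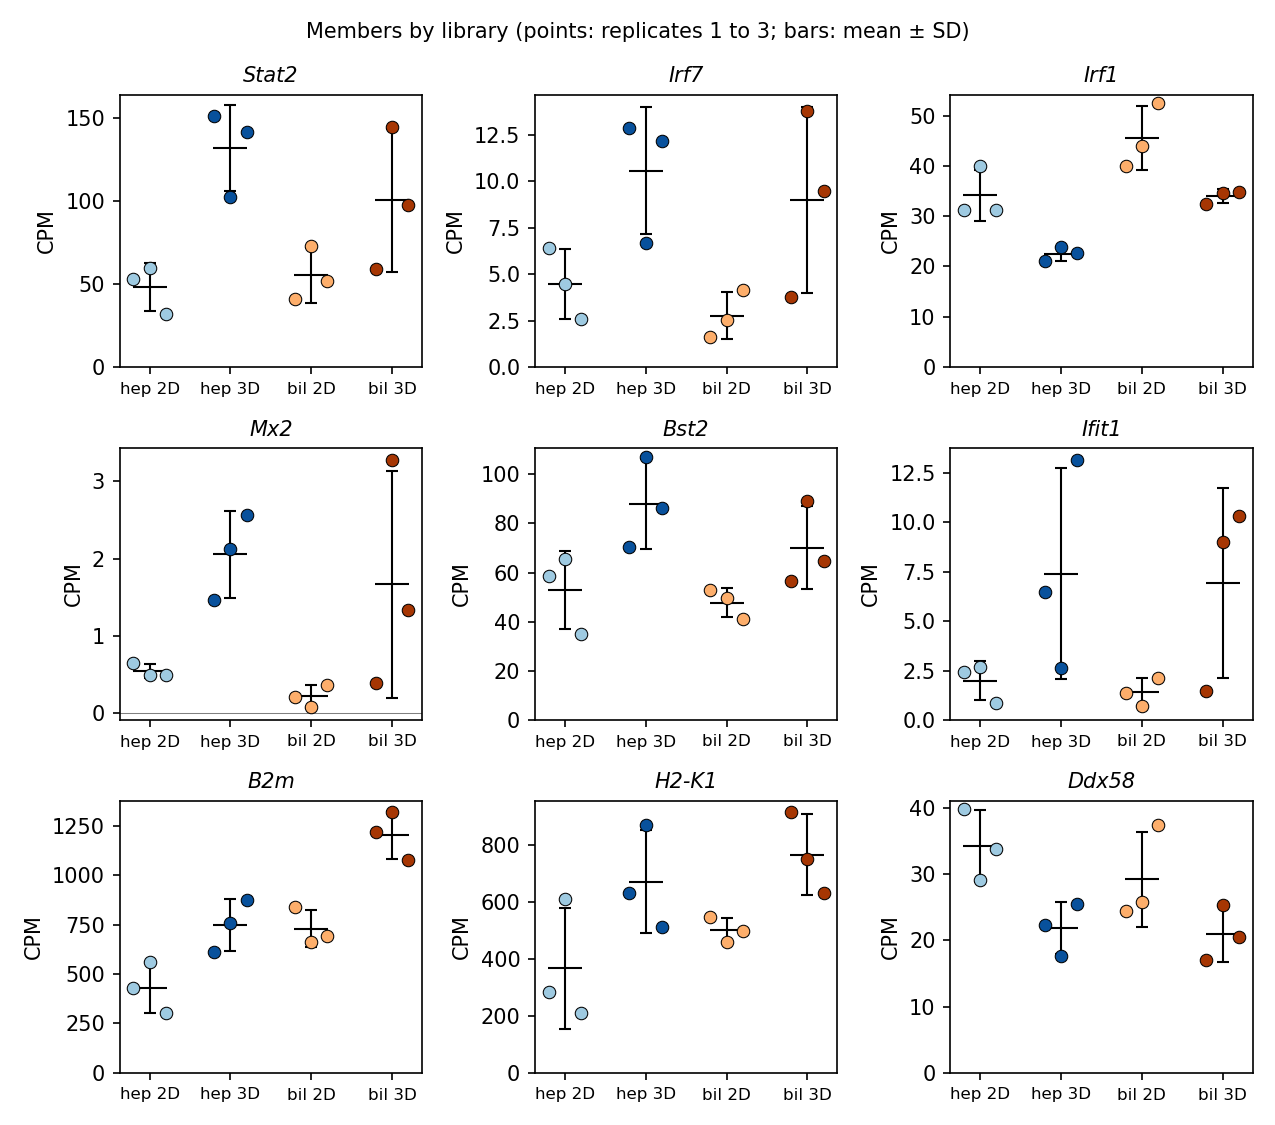
CPM of 9 of the genes in every library, with points for replicates 1 to 3 and bars for the mean and SD of each group, on axes that start at 0 or just below. Stat2, Bst2 and B2m lie higher and Irf1 and Ddx58 lower in hepCLiP 3D without overlap, and the bilCLiP 3D points of Stat2, Irf7, Mx2 and Ifit1 are spread widely.

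Of the 11 antiviral effectors, 10 were tested, and 1 was called in either origin: Bst2 in hepCLiP and Mx2 in bilCLiP. This is 10% in each, against 34.7% and 30.3% of all genes. Bst2 (tetherin), which holds budding virus at the cell surface, rose in hepCLiP from 58.6, 65.5 and 35.2 CPM to 70.5, 107 and 86.4 CPM. The groups did not overlap, but the gap between the highest 2D and the lowest 3D library was small. The log2 fold change was 0.73 ± 0.253 (adjusted p = 0.0449), near the threshold, and the call was lost on leaving out hepCLiP 2D replicates 1 or 3, hepCLiP 3D replicates 2 or 3, bilCLiP 2D replicates 1, 2 or 3, or bilCLiP 3D replicate 3 (adjusted p 0.0540 to 0.154). In bilCLiP, Bst2 read 52.8, 49.7 and 41.0 CPM and then 56.6, 89.2 and 64.6 CPM, also without overlap, and was not called (0.55 ± 0.252, adjusted p = 0.123).

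Mx2, a dynamin-like GTPase that restricts viruses, rose in bilCLiP from a low level. It read 0.215, 0.0777 and 0.364 CPM in 2D and 0.395, 3.27 and 1.33 CPM in 3D. All 3 3D libraries were above the 2D range, bilCLiP 3D replicate 1 barely and replicate 2 the most. The log2 fold change was 2.91 ± 0.740 (adjusted p = 0.0130), and the call was lost on leaving out bilCLiP 3D replicate 2 (adjusted p = 0.0660), where the log2 fold change was 1.98. In hepCLiP it went from 0.648, 0.500 and 0.500 CPM to 1.47, 2.13 and 2.57 CPM without overlap, a change of 1.89 ± 0.692 that was not called (adjusted p = 0.0552) but was by DESeq2 (1.95, DESeq2 adjusted p = 0.0251) and without bilCLiP 3D replicates 1 or 2 (adjusted p = 0.0209 and 0.0324). In GRCm38 transcripts, 4.38% of the 50-base stretches of Mx2 also occur in Mx1, which had at most a few counts per group.

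Ifit1, which binds foreign RNA caps and has 2 ISRE cores in its window, had the second largest log2 fold change among the 31 genes in either origin, and was not called in either. It read 2.41, 2.68 and 0.849 CPM in hepCLiP 2D and 6.45, 2.62 and 13.1 in 3D (1.90 ± 0.788, adjusted p = 0.0854). In bilCLiP it read 1.38, 0.700 and 2.14 CPM in 2D and 1.45, 9.01 and 10.3 in 3D (2.30 ± 0.801, adjusted p = 0.0510). In each origin 2 of the 3D libraries were above every 2D library and the other was within or next to the 2D range. Ifit1 was called in hepCLiP without bilCLiP 3D replicate 1 (1.97, adjusted p = 0.0411). It was called in bilCLiP without that library (2.80, adjusted p = 0.0168) and without hepCLiP 2D replicate 3, or hepCLiP 3D replicates 2 or 3 (adjusted p 0.0430 to 0.0495). DESeq2 called Ifit1 higher in both, at adjusted p-values of 0.0303 and 0.0101. Of its neighbours, Ifit2 had log2 fold changes of -0.13 ± 0.248 and -0.20 ± 0.249, and Ifit3 of 0.72 ± 0.519 and -0.20 ± 0.519, none of them called. The counts of Ifit3 are uncertain, as 51.2% of its 50-base stretches also occur in Ifit3b.

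Isg15, the ubiquitin-like protein with 3 ISRE cores, varied more within groups than between them. It read 3.65, 1.73 and 0.649 CPM in hepCLiP 2D, 7.25, 1.28 and 3.13 in hepCLiP 3D, 1.25, 2.57 and 1.96 in bilCLiP 2D and 1.05, 6.43 and 2.49 in bilCLiP 3D. The 3D groups each held a library below 1.3 CPM and a library above 6 CPM, and the changes of 0.95 ± 0.803 and 0.79 ± 0.799 were not called. Rsad2 (viperin), which makes a chain-terminating nucleotide, changed by -0.03 ± 1.01 and -0.16 ± 0.992. The oligoadenylate synthase genes Oas1a, Oasl1 and Oasl2 had log2 fold changes between -0.91 and 0.36 with SEs near 1. The 95% interval for Oas1a in hepCLiP ran from -3.14 to 1.72, so this spread leaves changes in either direction undetected. Oas1a is uncertain besides, since 57.6% of its stretches occur in Oas1g. The untested Oas2 had 7, 7 and 2 counts in hepCLiP 2D and 67, 4 and 10 in 3D, so its rise in hepCLiP rests on 3D replicate 1. In bilCLiP, Oas2 had no count in 2D and 0, 3 and 2 counts in 3D. Against a floor of 3 counts summed over the 2D group, this was 2.37-fold higher. That ratio takes the 3D counts as exact, leaves out the spread between libraries and is not a lower limit. PCR copies are also not independent molecules. hepCLiP 3D replicate 1 also held 282 CPM of the fibroblast gene Dcn, against at most 17.8 CPM in any other library. Dcn made up most of the 300 CPM summed there over 9 fibroblast and stellate markers. Of the rest, Rgs5 had 136 counts in that library, Reln 93, Col1a1 16, Lrat 5, Lum 4, Pdgfrb 4, Des 1 and Col3a1 0. Whether the Dcn level and the Oas2 counts are linked was not tested.

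None of the 5 feedback and other induced genes was called in either origin, where 34.7% and 30.3% of all genes were. None had an unadjusted p under 0.05, against 6707 and 6133 of all 14798 genes tested. DESeq2 called 0 in each, against 39.7% and 35.9% of all genes. Usp18, the protease that removes ISG15 and blocks the receptor Ifnar2, read 15.2, 3.14 and 10.3 CPM in hepCLiP 2D and 4.03, 1.28 and 8.41 CPM in 3D. In bilCLiP it read 3.06, 6.18 and 3.10 CPM and 0.461, 4.94 and 1.51 CPM. The groups overlapped, and the log2 fold changes were -1.06 ± 0.854 and -0.83 ± 0.863. Rtp4, Ifi44, Xaf1 and the ADP-ribosyltransferase Parp14 had log2 fold changes between -1.09 and 1.17, with overlap in all. Parp14 had 22.8 ± 1.76 CPM in the 3D libraries of hepCLiP and 23.5 ± 5.27 CPM in those of bilCLiP (mean ± SD, n = 3), and its changes were -0.20 ± 0.340 and 0.05 ± 0.340.

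Among the 6 class I genes, B2m, the light chain shared by all class I molecules, rose in both origins. It read 429, 560.5 and 302 CPM in hepCLiP 2D and 611, 759 and 873 CPM in 3D (0.80 ± 0.233, adjusted p = 0.0218). It read 837, 663 and 690.4 CPM in bilCLiP 2D and 1216, 1317 and 1077 CPM in 3D (0.72 ± 0.232, adjusted p = 0.0375). Every 3D library was above every 2D library of its origin, and bilCLiP 2D overlapped hepCLiP 3D. The hepCLiP call was lost on leaving out hepCLiP 2D replicates 1 or 3, or hepCLiP 3D replicates 2 or 3 (adjusted p 0.0557 to 0.0716), and the bilCLiP call on leaving out hepCLiP 2D replicate 1, hepCLiP 3D replicate 2, bilCLiP 2D replicates 2 or 3, or bilCLiP 3D replicates 1, 2 or 3 (adjusted p 0.0514 to 0.114). Without these libraries B2m stayed higher in 3D, at log2 fold changes of 0.59 to 1.03 in hepCLiP and 0.65 to 0.83 in bilCLiP over all 12 left-out libraries.

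H2-K1, a classical heavy chain, was higher on average in 3D and not called. hepCLiP read 282, 609 and 211 CPM and then 632, 870.3 and 512 CPM, with the 2D libraries spread almost 3-fold (0.87 ± 0.353, adjusted p = 0.0787). bilCLiP read 547, 459 and 499.8 CPM and then 916, 749.6 and 632 CPM without overlap (0.61 ± 0.351, adjusted p = 0.217). With the replicate block it was called in both, at log2 fold changes of 0.99 (adjusted p = 0.00339) and 0.60 (adjusted p = 0.0277). It was also called in hepCLiP without 2D replicate 2 (1.45, adjusted p = 0.00442). The other classical heavy chain, H2-D1, was not called, with changes of 0.13 ± 0.236 and 0.12 ± 0.236 and 95% intervals of -0.39 to 0.65 and -0.40 to 0.64. Of the stretches of H2-K1 and H2-D1, 9.63% and 12.8% occur in other genes, so their reads can be misplaced. The largest shares were with the class I genes H2-Q10 (5.18% for H2-K1) and H2-Q1 (5.87% for H2-D1).

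The divergent pair Psmb9 and Tap1 had log2 fold changes of opposite sign, none of them called. Psmb9, an immunoproteasome subunit, read 1.43, 3.64 and 0.899 CPM in hepCLiP 2D and 3.66, 5.11 and 3.68 CPM in 3D, just without overlap, and 3.53, 2.02 and 0.638 and 4.61, 5.63 and 1.68 CPM in bilCLiP, with overlap. Its changes of 1.06 ± 0.676 and 0.94 ± 0.672 were not called, and with the replicate block the hepCLiP change was (log2 1.24, adjusted p = 0.0299). Tap1, a chain of the peptide transporter, had changes of -0.39 ± 0.425 and -0.48 ± 0.425, below 0 and not called. Whether the changes of these genes differ from each other was not tested. Psmb8, a further immunoproteasome subunit, changed by 0.47 ± 0.482 and 0.38 ± 0.481 and was not called.

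The chemokine Cxcl10, which draws T cells through the receptor Cxcr3, read 3.47, 1.18 and 1.35 CPM in hepCLiP 2D and 7.40, 0.851 and 7.09 CPM in 3D. In bilCLiP it read 0.991, 0.777 and 1.96 CPM in 2D and 1.65, 5.80 and 6.15 CPM in 3D. In each origin 2 libraries of the 3D group were above the 2D range, while the third was below it in hepCLiP and within it in bilCLiP. The changes of 1.35 ± 0.782 and 1.87 ± 0.797 were not called (adjusted p = 0.205 and 0.102). The bilCLiP change was called with the replicate block (log2 1.78, adjusted p = 0.0405), by DESeq2 (DESeq2 adjusted p = 0.0471) and without hepCLiP 3D replicate 2 (adjusted p = 0.0444).

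Which library stood highest or lowest within its group was shared by many of the 31 genes. In bilCLiP 3D, replicate 2 was the highest of the 3 for 23 of the 31 genes (74.2%, against 37.3% of all genes tested) and the lowest for none. Replicate 1 was the lowest for 22 (71.0%, against 36.7%). In hepCLiP 2D, replicate 3 was the lowest for 22 (71.0%, against 35.5%) and replicate 2 the highest for 19 (61.3%, against 31.2%). In hepCLiP 3D and bilCLiP 2D no library was highest for more than 13, and the most often lowest were hepCLiP 3D replicate 2, for 16 (51.6%, against 29.9%), and bilCLiP 2D replicate 1, for 13 (41.9%, against 39.0%). The genes are not independent of each other, so these shares are descriptions with no test. The mean of log2(CPM + 1) over the 31 genes was 3.23 ± 0.0364 in bilCLiP 2D and 3.47 ± 0.471 in bilCLiP 3D, and 3.30 ± 0.336 and 3.56 ± 0.228 in hepCLiP 2D and 3D (SD, n = 3). bilCLiP 3D replicate 1 also had the lowest summed hepatocyte markers of the 3D libraries, 39087 CPM against 80613 and 71276 CPM in replicates 2 and 3, and the highest Spp1, 33046 CPM against 13421 and 27945 CPM, while the other 7 biliary markers summed to 365 CPM, against 359 and 430.1 CPM. Its summed leukocyte and macrophage markers were 5.40 CPM, against 19.4 and 18.0 CPM in replicates 2 and 3, of which Csf1r made up 4.02, 16.9 and 13.5 CPM. The part of these differences in the levels of the 32 genes was not tested.

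**Figure D4:**
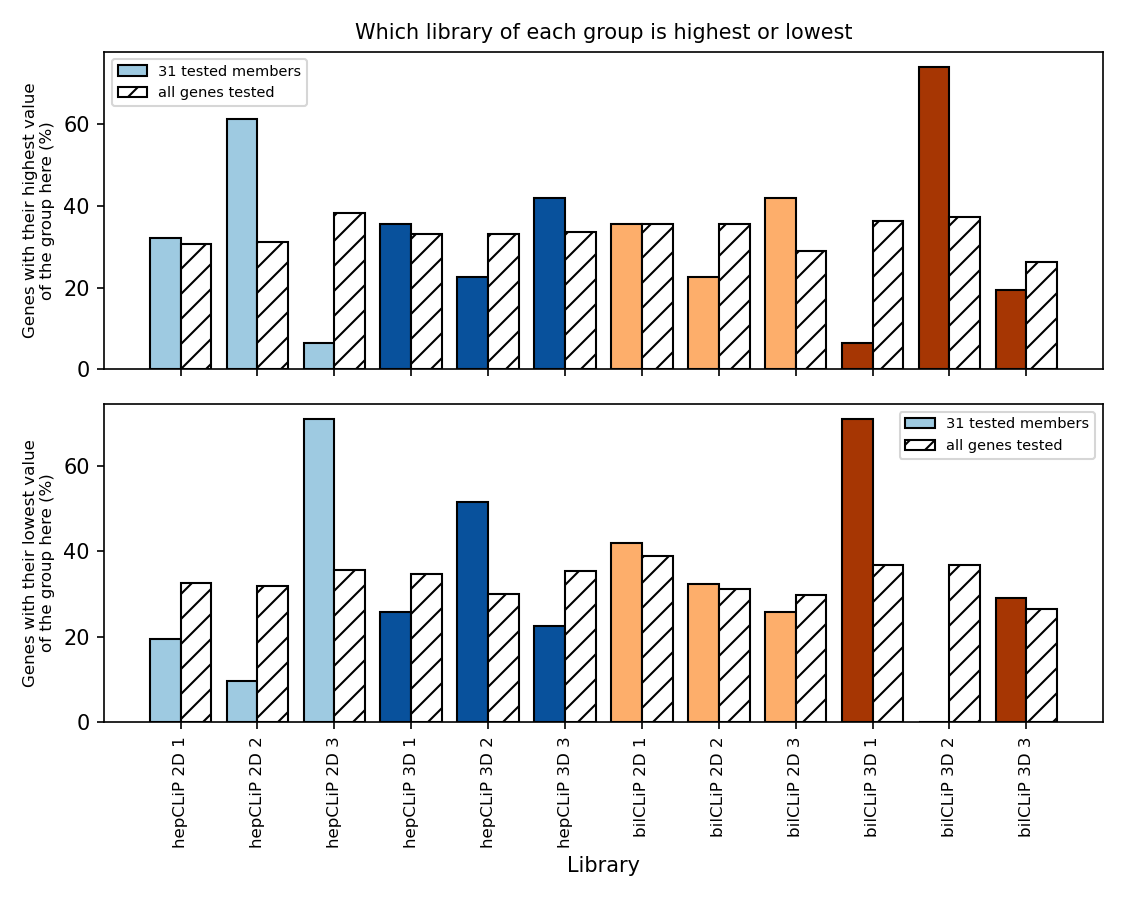
Share of genes, in percent, for which each library held the highest (top) or lowest (bottom) CPM of its group of 3, for the 31 tested genes (coloured) and all genes tested (hatched). bilCLiP 3D replicate 2 held the highest value for 74.2% of the 31 genes and the lowest for none.

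Between origins, no gene of the 31 was called in 2D, where 0.135% of all genes were, or in 3D, where 0.101% were. In 2D 2 of the 31 had an unadjusted p under 0.05, against 2146 of all 14798 genes tested. There DESeq2, which called 4.19% of all genes, called 1, B2m, higher in bilCLiP (log2 0.77, DESeq2 adjusted p = 0.0320). B2m was 730.3 ± 93.8 CPM in bilCLiP 2D and 431 ± 129 CPM in hepCLiP 2D, without overlap (0.76 ± 0.233, edgeR adjusted p = 0.215). In 3D 3 had an unadjusted p under 0.05, namely Irf1, B2m and Trim25, against 2461 of all 14798 genes tested. There DESeq2, with 4.79% of all genes called, called Irf1 higher in bilCLiP (log2 0.56, DESeq2 adjusted p = 0.0188). Irf1 read 34.0 ± 1.34 CPM in bilCLiP 3D and 22.5 ± 1.37 CPM in hepCLiP 3D, again without overlap (0.59 ± 0.143, edgeR adjusted p = 0.156). The log2 fold changes of bilCLiP over hepCLiP ran from -1.32 (Mx2) to 0.95 (Zbp1) in 2D and from -0.98 (Usp18) to 1.04 (Zbp1) in 3D. Origin and reporter genotype differ together in part, since RosaConfetti occurs only in hepCLiP.

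The effect of culture was also compared between the origins. For none of the 31 genes was the difference called, none had an unadjusted p under 0.05, and DESeq2 called 0. Of all genes tested edgeR called 0 (0%), 532 had an unadjusted p under 0.05, and DESeq2 called 13 higher and 3 lower (0.301%). The differences ran from -0.92 (Ifit3) to 1.13 (Oasl1). For B2m the difference was -0.08 ± 0.327 with a 95% interval of -0.80 to 0.65, for Irf1 0.18 ± 0.201 (-0.26 to 0.62) and for Mx2 1.02 ± 0.977 (-1.13 to 3.18). A change called in a single origin, such as that of Stat2 or Mx2, is therefore not shown to differ from the change in the other origin.

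The wider pathway was described by 148 further genes, of which 111 were tested. In hepCLiP 27 rose and 9 fell (32.4% called, against 34.7% of all genes), and in bilCLiP 30 rose and 7 fell (33.3%, against 30.3%). Their median log2 fold changes were 0.26 and 0.34. With library totals 12 rose and 26 fell in hepCLiP and 18 rose and 18 fell in bilCLiP. Among genes named below, the calls of Trim30a and Tgtp1 in hepCLiP and of Ptpn6, Aim2, H2-Q7 and Psmb6 in bilCLiP were then lost, and others lost are given beside the genes. No interferon gene could be tested: of 15, among them Ifnb1, Ifng and 8 Ifna genes, 11 had no count in any library and none exceeded 5 counts in a library. Among 15 receptors, kinases and inhibitors, 3 rose and 1 fell in hepCLiP and 4 rose and 1 fell in bilCLiP. That is 26.7% and 33.3% called, against 34.7% and 30.3% of all genes. Socs3, an inhibitor of JAK kinases that STAT3 induces, read 50.7, 88.0 and 38.9 CPM in hepCLiP 2D and 405, 398 and 419 in 3D, and 51.5, 63.0 and 77.5 and 519.8, 385 and 386 CPM in bilCLiP. The groups were far apart in both (2.78 ± 0.290, adjusted p = 0.000129, and 2.75 ± 0.290, adjusted p = 0.000130). The type I receptor chain Ifnar2 rose by 1.29 ± 0.213 and 1.41 ± 0.214, while the interferon gamma receptor chain Ifngr1 fell from 167 ± 97.9 to 69.3 ± 11.4 CPM in hepCLiP and from 249 ± 44.2 to 86.5 ± 20.2 CPM in bilCLiP (mean ± SD, n = 3). The hepCLiP call of Ifngr1 (-1.27) was lost on leaving out hepCLiP 2D replicate 2, or hepCLiP 3D replicate 1 (adjusted p 0.0649 to 0.0829), and without the former its log2 fold change was -0.68. The phosphatase gene Ptpn2 rose in both (0.61 and 0.45), the bilCLiP call being lost on leaving out hepCLiP 2D replicate 2, bilCLiP 2D replicates 1, 2 or 3, or bilCLiP 3D replicates 2 or 3 (adjusted p 0.0555 to 0.140). With library totals Ptpn2 was level in both (0.04 and -0.02). Ptpn6 rose in bilCLiP (1.30), a call lost on leaving out bilCLiP 2D replicates 1, 2 or 3, or bilCLiP 3D replicates 2 or 3 (adjusted p 0.0555 to 0.131). In hepCLiP, Ptpn6 was called with the replicate block (1.09, adjusted p = 0.0292).

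**Figure D5:**
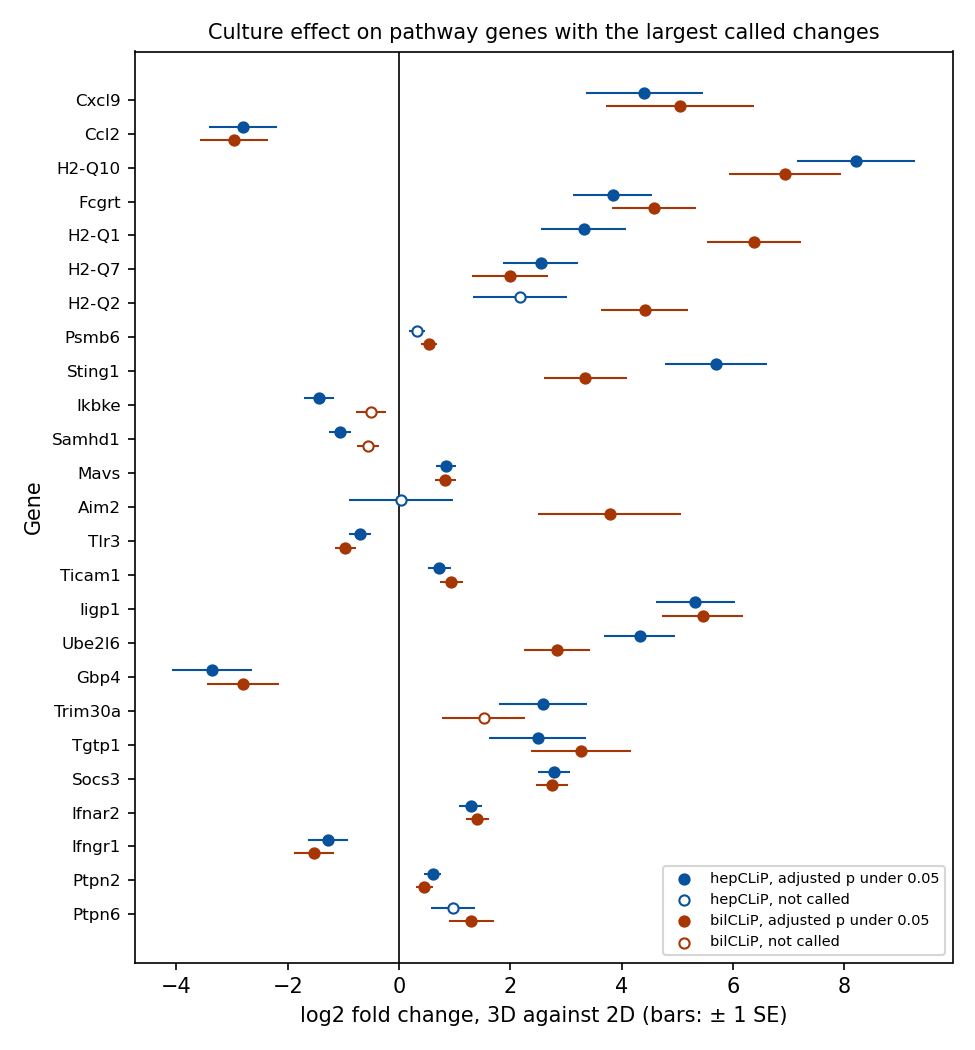
Log2 fold change of 3D against 2D for the named genes of the wider pathway, with bars of 1 SE on either side, blue for hepCLiP and brown for bilCLiP, and filled points for an adjusted p under 0.05. The class I genes H2-Q10, Fcgrt, H2-Q1 and H2-Q7 lie to the right in both origins, and Ccl2, Gbp4 and Ifngr1 to the left.

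Of 16 tested genes that act upstream in nucleic acid sensing, 3 rose and 4 fell in hepCLiP and 4 rose and 2 fell in bilCLiP. These are 43.75% and 37.5% called, against 34.7% and 30.3% of all genes. Sting1, the adaptor for cytosolic DNA, went from 0.370, 0.318 and 0.450 CPM to 30.4, 13.7 and 15.6 CPM in hepCLiP (5.69 ± 0.915, adjusted p = 0.00108) and from 15.5, 1.09 and 7.93 CPM to 87.6, 42.1 and 119 CPM in bilCLiP (3.34 ± 0.745, adjusted p = 0.00696). Its 2D level was below 0.5 CPM in every hepCLiP library and above 1 CPM in every bilCLiP library. With all libraries edgeR did not call this difference between origins. Without bilCLiP 2D replicate 2 it was called higher in bilCLiP (log2 4.93, adjusted p = 0.0186), as it was by DESeq2 (4.45, DESeq2 adjusted p = 1.74e-06). Mavs, the adaptor through which RIG-I and MDA5 signal, rose by 0.84 ± 0.186 and 0.83 ± 0.186, and was called in neither with library totals (0.27 and 0.35). The kinase gene Ikbke and the nucleotide hydrolase gene Samhd1 fell in hepCLiP (-1.44 and -1.06) and were not called in bilCLiP (-0.51 and -0.56). Both were called lower in bilCLiP with the replicate block (adjusted p = 0.0478 and 0.0171) and with the bilCLiP groups alone (adjusted p = 0.0447 and 0.0243). With library totals both were called lower there too (-0.98, adjusted p = 0.0113, and -1.04, adjusted p = 0.00235). Samhd1 was also called there by DESeq2 (DESeq2 adjusted p = 0.0363) and without hepCLiP 2D replicates 2 or 3, or hepCLiP 3D replicate 2 (adjusted p 0.0266 to 0.0492). Tlr3, an endosomal receptor for viral RNA, fell in both (-0.70 and -0.96), and its adaptor gene Ticam1 rose in both (0.72 and 0.94). In hepCLiP the Tlr3 call was lost on leaving out hepCLiP 2D replicates 1 or 2, or hepCLiP 3D replicates 1 or 2 (adjusted p 0.0527 to 0.0951) and the Ticam1 call on leaving out hepCLiP 2D replicates 1 or 3, or hepCLiP 3D replicates 2 or 3 (adjusted p 0.0598 to 0.0736). With library totals Ticam1 was called in neither (0.16 and 0.47). Aim2, a DNA sensor, had 3 counts in bilCLiP 2D and 32 in 3D (ratio 15.2, exact 95% interval 4.75 to 77.4), 24 of them in 3D replicate 1. This interval covers counting error of the pooled reads and not the spread between libraries, and the call was lost on leaving out hepCLiP 2D replicates 1 or 2, hepCLiP 3D replicates 1 or 3, bilCLiP 2D replicates 2 or 3, or bilCLiP 3D replicates 1 or 3 (adjusted p 0.0525 to 0.220). Over the left-out libraries its log2 fold change ran from 2.30 to 6.65, around 3.79 with all of them.

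Of 47 other interferon-induced genes tested, 9 rose and 3 fell in each origin (25.5% called, against 34.7% and 30.3% of all genes). Iigp1, a GTPase that attacks parasite vacuoles, read 13.9, 4.18 and 3.85 CPM in hepCLiP 2D and 468, 238 and 176 CPM in 3D, and 7.71, 1.55 and 6.15 and 245, 191 and 239 CPM in bilCLiP (5.33 ± 0.714 and 5.45 ± 0.720). Ube2l6, which encodes the conjugating enzyme for ISG15, went from 4.33 ± 1.62 to 86.8 ± 11.5 CPM in hepCLiP and from 7.29 ± 3.94 to 52.3 ± 34.0 CPM in bilCLiP (4.32 ± 0.641 and 2.84 ± 0.597), although Isg15 itself was not called. The GTPase gene Gbp4 fell by 3.36 and 2.81 on the log2 scale. Trim30a rose in hepCLiP (2.59 ± 0.786), a call lost on leaving out hepCLiP 2D replicates 2 or 3, or hepCLiP 3D replicates 1 or 3 (adjusted p 0.0536 to 0.0834). In bilCLiP, Trim30a was called with the replicate block (1.73, adjusted p = 0.0310) and without bilCLiP 2D replicate 1 (adjusted p = 0.0367). Tgtp1 was called higher in both (2.49 and 3.27), but 81.2% of its stretches occur in other genes, mainly Tgtp2. Its hepCLiP call was lost with the replicate block (adjusted p = 0.0635) and on leaving out hepCLiP 2D replicates 1, 2 or 3, hepCLiP 3D replicates 1 or 3, bilCLiP 2D replicates 1 or 2, or bilCLiP 3D replicates 2 or 3 (adjusted p 0.0514 to 0.154), and its bilCLiP call on leaving out bilCLiP 2D replicates 1 or 2, or bilCLiP 3D replicates 2 or 3 (adjusted p 0.0525 to 0.0668). Among 3 tested chemokines, Ccl2, which attracts monocytes, fell from 869.9 ± 247 to 125 ± 102 CPM in hepCLiP and from 945 ± 320.0 to 120.4 ± 40.5 CPM in bilCLiP. Cxcl9, which shares its receptor with Cxcl10, rose by 4.41 ± 1.05 in hepCLiP. In bilCLiP, Cxcl9 had 1 count in 2D and 33 in 3D (ratio 46.9, exact 95% interval 7.86 to 1909.6, again for counting error alone), and the call was lost on leaving out bilCLiP 2D replicates 2 or 3 (adjusted p 0.0533 to 0.0576).

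The class I list of 25 genes beside the 32 had 11 that rose and none that fell in each origin (44% called, against 34.7% and 30.3% of all genes), with medians of 0.87 and 0.86. H2-Q10, a class I molecule that hepatocytes secrete, read 4.12, 3.68 and 5.20 CPM in hepCLiP 2D and 2198, 1014 and 646 CPM in 3D. In bilCLiP it read 0.388, 10.8 and 4.24 CPM and 342, 758 and 803 CPM, so every 3D library was far above the 2D range in both. The log2 fold changes were 8.21 ± 1.06 (adjusted p = 0.000361) and 6.94 ± 1.01 (adjusted p = 0.000756). Fcgrt, the Fc receptor that protects IgG and albumin from breakdown and pairs with B2m, rose by 3.84 ± 0.710 and 4.58 ± 0.752. The heavy chain H2-Q1 rose by 3.32 ± 0.760 and 6.38 ± 0.849, H2-Q2 by 4.42 ± 0.782 in bilCLiP, and H2-Q7 by 2.54 ± 0.677 and 2.00 ± 0.678. The H2-Q7 call was lost on leaving out hepCLiP 2D replicates 2 or 3 (adjusted p 0.0509 to 0.0526) in hepCLiP and on leaving out hepCLiP 2D replicates 1, 2 or 3, hepCLiP 3D replicates 1, 2 or 3, bilCLiP 2D replicates 2 or 3, or bilCLiP 3D replicates 1 or 2 (adjusted p 0.0504 to 0.118) in bilCLiP. Between 15.0% and 26.4% of the stretches of these 4 H2-Q genes occur in other genes, with another H2-Q gene as the main one for each, so their counts are uncertain. Of 7 peptide-loading genes of this list, grouped after their values were seen, 3 rose in both origins and 4 were not called in either. Calr rose by 0.97 ± 0.190 and 1.06 ± 0.191, Pdia3 by 0.68 ± 0.162 and 0.69 ± 0.162, and the peptide editor Tapbpl by 1.16 ± 0.290 and 0.96 ± 0.288. The Tapbpl call in bilCLiP was lost on leaving out bilCLiP 2D replicates 1 or 2, or bilCLiP 3D replicates 2 or 3 (adjusted p 0.0630 to 0.0936). The genes not called were Canx (-0.02 ± 0.173 and -0.11 ± 0.173), Tapbp (0.43 ± 0.401 and 0.37 ± 0.401), Erap1 (0.09 ± 0.195 and 0.18 ± 0.195) and Tap2 (1.40 ± 0.523 and 1.13 ± 0.520). With library totals Calr, Pdia3 and Tapbpl were not called in hepCLiP (0.39, 0.11 and 0.59), nor were Pdia3 and Tapbpl in bilCLiP (0.20 and 0.48). Calr and Pdia3 also serve general protein folding. Summed hepatocyte markers rose with these genes, from 470 to 2082 CPM in hepCLiP 2D to 69531 to 84885 CPM in 3D and from 196 to 1393 CPM in bilCLiP 2D to 39087 to 80613 CPM in 3D, and their part in the class I result was not tested.

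Of 9 class II genes, which professional antigen-presenting cells use, 2 were tested and 0 were called in either origin, where 34.7% and 30.3% of all genes were. In each origin 1 had an unadjusted p under 0.05, against 6707 and 6133 of all 14798 genes tested. DESeq2 called 1 higher in each, against 39.7% and 35.9% of all genes called. Cd74, the invariant chain, named after its values were seen, read 0.833, 0.636 and 0.300 CPM in hepCLiP 2D and 14.6, 1.21 and 1.67 CPM in 3D, and 0.172, 0.0777 and 0.228 and 0.0659, 3.10 and 2.20 CPM in bilCLiP. It was called higher in hepCLiP with the replicate block (2.64, adjusted p = 0.0486), and without bilCLiP 3D replicate 1 in hepCLiP (3.35, adjusted p = 0.0211) and bilCLiP (4.04, adjusted p = 0.0208). Of the 3 constitutive proteasome subunits that the immunoproteasome replaces, Psmb6 rose in bilCLiP (0.54 ± 0.139, adjusted p = 0.0137), a call lost on leaving out bilCLiP 2D replicates 1 or 3, or bilCLiP 3D replicate 3 (adjusted p 0.0506 to 0.0535). This is 33.3% called in bilCLiP, against 30.3% of all genes. Lists of 2 and 3 tested genes are too short to set against such shares. None of the 3 was called in hepCLiP, against 34.7% of all genes, but 2 had an unadjusted p under 0.05 and DESeq2 called 2 higher. With the replicate block Psmb6 was called there (0.33, adjusted p = 0.0350).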

How the data were processed

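RNA was measured in 12 libraries of 4 groups, taken from the sample titles. The authors deposited raw read counts per gene and a normalized table that was not used. STAR 2.7.10b, featureCounts 2.0.1, DESeq2 and the build GRCm39 appear in the submitters' processing notes. Which annotation and strand setting were used is not given in the sources used here, and reads of overlapping or antisense genes cannot be told apart. Counts were tested in R 4.3.3 with edgeR 4.0.16 (filterByExpr, TMM scaling, robust quasi-likelihood fit, 4 group means over 12 libraries, 5 contrasts). Standard errors and 95% intervals come from the same fit. Simulated data were used to test the scripts. The members, gene lists and tests were chosen with earlier results of these data known. Named were all 32 members, up to 4 called genes with the largest changes per pathway list and culture contrast, and all interferon ligands; other names were chosen after their values were seen. Same-numbered libraries of the cultures of an origin deviated together (r 0.497 to 0.508 in hepCLiP, 0.429 to 0.523 in bilCLiP), and those of the origins did so at 0.0544 to 0.126, so numbers pair the cultures within an origin. The main test leaves this pairing out, and the replicate block takes it in. Shared sequence was counted as 50-base stretches of GENCODE M21 transcripts (GRCm38), and promoter windows of 250 bases came from RefSeq (GRCm38.p6). Alternatives were DESeq2 1.42.0 (its test and its size factors), no low-count filter, the replicate block, the compared groups alone, RosaYFP libraries alone, each library left out and, added after the data were seen, library totals without TMM factors.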

Additional observations from a re-analysis of the deposited data

How the results depend on the processing

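Over 19 alternatives, where a value could be computed, 1 called change of the 32 genes and the named pathway genes turned its direction, that of Ptpn2 in bilCLiP with library totals (-0.0224, adjusted p = 0.923). With 3 libraries a group, the counts of calls moved more than the fold changes did. DESeq2 size factors moved the median of all genes by less than 0.1 on the log2 scale. Library totals moved it to -0.63 in hepCLiP and -0.47 in bilCLiP, and the call counts with it. They gave 1292 higher and 6623 lower of all genes, 1 and 4 of the 31 and 12 and 26 pathway genes in hepCLiP, 1346 and 5417, 1 and 3, and 18 and 18 in bilCLiP, and 4 of all genes lower in bilCLiP 3D than in hepCLiP 3D.

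Leaving out each library in turn gave 1 to 6 of the 31 genes higher and 0 to 2 lower in hepCLiP, and 0 to 5 higher and 0 to 1 lower in bilCLiP. Pathway genes numbered 18 to 28 higher and 7 to 12 lower in hepCLiP, and 21 to 29 and 6 to 9 in bilCLiP. All genes numbered 1997 to 2743 higher and 1917 to 2661 lower in hepCLiP, and 1715 to 2378 and 1373 to 2177 in bilCLiP. Between origins, 4 to 13 of all genes were higher and 2 to 20 lower in bilCLiP in 2D, and 3 to 129 and 0 to 122 in 3D, with 0 to 1 pathway genes higher in each and none of the 31 genes called. The difference of the culture effects was called higher for 0 to 3 of all genes, lower for 0, and for none of the 31.

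With the replicate block, 6 of the 31 genes were higher in either origin, against 3, and 14 pathway genes were lower in either, against 9 in hepCLiP and 7 in bilCLiP. Numbers do not pair the origins, and there the block gave 24 higher and 38 lower of all genes in 2D and 25 and 19 in 3D, with no call among the 31 genes. It lost none of the calls of the 31 genes in 2D against 3D.

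DESeq2 called 7 of the 31 genes higher in hepCLiP and 6 in bilCLiP. Between origins it called 183 higher and 376 lower of all genes in 2D and 261 and 391 in 3D, with 1 of the 31 genes higher in each, 2 pathway genes higher and 2 lower in 2D, and 2 and 1 in 3D. For the difference of the culture effects it called 13 higher and 3 lower of all genes. DESeq2 size factors left 1 of the 31 genes lower in hepCLiP. Without the low-count filter 1 was lower in hepCLiP and 0 in bilCLiP, and 11 of all genes were lower in bilCLiP 3D than in hepCLiP 3D.

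In fits of the compared groups alone, 1 of the 31 genes was lower in hepCLiP, 1 was higher and 0 lower in bilCLiP, and 5 higher and 0 lower of all genes differed between origins in 2D and 3 and 0 in 3D. Such a fit gives no difference of the culture effects. With RosaYFP libraries alone, 1 hepCLiP library remains in either culture, and its spread is taken from the bilCLiP groups. They gave 394 higher and 375 lower of all genes in hepCLiP, 5 and 0 pathway genes and 0 and 0 of the 31, where Stat2 had a log2 fold change of 0.78 (adjusted p = 0.493). In bilCLiP they gave 1 and 0 of the 31, and between origins 4 higher and 1 lower of all genes in 2D and 10 higher and 2 lower in 3D. Genes below about 1 CPM in most libraries, such as Zbp1, Ifi44 and Oas2, rest on few counts in those libraries. Sequencing depth limits what can be seen in them.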
